A study of Homo sapiens with 9 samples.

Results

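Interleukin-6 (IL-6) signaling was followed through 10 genes in RIVA cells that expressed mutant BCL10. The 10 genes were the ligand IL6, the receptor chains IL6R, IL6ST and CNTFR, the Janus kinases JAK1 and JAK2, the feedback inhibitors SOCS1, SOCS3 and CISH, and the STAT-responsive kinase PIM1. They were taken by symbol from a table of read counts for 60656 genes, and all 10 were found there. RIVA is an established cell line from a diffuse large B-cell lymphoma of the activated B-cell-like type (ABC-DLBCL). It had been infected with a lentiviral, doxycycline-inducible plvx-Tetone construct and selected with puromycin. The construct carried no insert (vector, labelled BCL10 wild type), the truncation BCL10 S136X or the missense mutant BCL10 R58Q, and all 3 groups had received doxycycline for 24 h and kept their own BCL10 gene. Each group had 3 replicate libraries. The treatment protocol gives 200 ng/mL doxycycline, whereas the sample characteristics list 200 ng/µL. The deposited columns carry a date in their names, which places the vector and S136X libraries on an earlier date and all R58Q libraries on a later one, so that R58Q and date cannot be told apart in the comparisons that include R58Q.

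IL-6 is bound by IL6R and signals through the shared chain gp130, the product of IL6ST. Janus kinases attached to gp130 then phosphorylate STAT3, which enters the nucleus and switches on genes that include SOCS3, a suppressor of the same receptor. CNTFR is the ligand-binding chain for ciliary neurotrophic factor, another cytokine of the gp130 family. BCL10 is a scaffold protein that activates NF-kB in B cells, and IL6 is a well-known NF-kB target. In ABC-DLBCL, IL-6 is known as a factor that lymphoma cells can make for themselves.

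Total counts per library ran from 28047713 to 33122267 (median 32185418). BCL10, read as a check of the constructs, had 885 to 1268 counts in vector, 9838 to 14293 in S136X and 10117 to 10596 in R58Q. All 9 of the B-cell markers examined had at least 10 counts in every library. The T-cell markers (4 genes) summed to at most 0.324 CPM (read counts adjusted for library depth), the myeloid markers (4 genes, FCGR3A at 0 throughout) to at most 0.558 CPM, and the endothelial markers VWF and CDH5 were both at 0. The sum of the fibroblast genes COL1A1, COL1A2 and DCN was 5.71 to 8.04 CPM (vector), 12.0 to 17.6 (S136X) and 12.6 to 18.1 (R58Q), with COL1A1 at 103 to 175, 281 to 463 and 317 to 562 counts. COL1A2 went the other way, at 75 to 167, 39 to 106 and 23 to 70 counts. DCN had 1 to 2, 1 to 14 and 1 to 18 counts, so that the 3 genes did not rise together. The epithelial pair EPCAM and KRT5 ranged in sum over 39.3 to 47.2 CPM (vector), 32.9 to 51.9 (S136X) and 34.1 to 53.6 (R58Q), nearly all from EPCAM. The part of these genes in the results was not tested.

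The stretch before the RefSeq start of IL6 is shown because IL6 was called in both comparisons with R58Q. The one upstream of CISH is shown because it held the most motif matches of the 10 genes. RefSeq promoters (GRCh38.p14) were found for 10 of 10 genes, with 16 windows of 250 bases before a transcription start. Each window was searched on both strands for the STAT letters TTCNNNGAA and TTCNNNNGAA, the AP-1 letters TGANTCA and the NF-kB consensus. Of all 35116 promoter windows, 6.57%, 5.38%, 6.57% and 5.21% held these motifs, in that order. The IL6 window held 1 NF-kB consensus match, GGGATTTTCC, 73 to 64 bases before the RefSeq start. The CISH window held 4 matches to TTCNNNGAA, and was 1 of 5 among the 35116 windows with 4 or more (0.0142%). The windows of the other 8 genes held none of these letters. For IL6 (plus strand) and for SOCS3 and CNTFR (minus strand), the windows followed other starts than the outermost one of the gene in the count table. The bases directly before those outermost starts (chromosome 7, 22725884, chromosome 17, 78360077 and chromosome 9, 34590140) lay in no window and were not searched. The IL6 window and its printed stretch thus lie inside the span of IL6 in the count table. Printed are the bases that GENCODE release 29 places outside any untranslated region, chr7:22726950-22727146 (plus strand) for IL6 and chr3:50611832-50611907 (minus strand) for CISH. Also printed is chr3:50611996-50612015, a short stretch inside an annotated untranslated region that holds the other CISH matches. The CISH window overlaps untranslated regions of CISH and of its neighbor MAPKAPK3. Capitals mark the motif matches.
IL6: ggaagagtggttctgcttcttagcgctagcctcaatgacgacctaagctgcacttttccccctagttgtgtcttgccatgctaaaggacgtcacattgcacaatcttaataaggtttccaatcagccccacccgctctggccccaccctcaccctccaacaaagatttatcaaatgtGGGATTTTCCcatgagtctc
CISH, near the start: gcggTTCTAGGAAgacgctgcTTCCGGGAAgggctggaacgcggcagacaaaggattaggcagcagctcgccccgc
CISH, farther upstream: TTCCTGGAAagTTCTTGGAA
A match describes letters only, and binding was not measured here.

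IL6 was not detected above the floor in vector or S136X cells and was detected in R58Q cells. The ligand gene (ENSG00000136244.12, chromosome 7, 22725884 to 22732002) had 0 counts in each vector library and 2 counts in each S136X library. In R58Q replicates 1 to 3 it had 91, 63 and 87 counts, or 3.07, 2.10 and 2.66 CPM. The R58Q libraries therefore stood far above the other 6, which were all at or under 3 counts, taken here as the floor. Set against this floor of 3 counts per library, which covers counting error only, the R58Q level was at least 29.1-fold higher (adjusted p = 2.70e-04 against vector). All adjusted p values here come from the quasi-likelihood test of edgeR, adjusted by Benjamini-Hochberg over all genes tested. Against S136X, its 241 counts over 3 libraries faced 6, a ratio of 39.2 after scaling (95% counting interval 17.7 to 108, adjusted p = 0.00162). A fold between S136X and vector is not given, since both groups were under the floor, and this difference was not tested. The summed counts were 6 in S136X and 0 in vector, and the 95% counting interval of their ratio began at 1.31. Bulk RNA cannot tell more cells with the transcript from more transcript per cell. The antisense gene AC073072.1 shares 428 of the 2069 exon bases of IL6, and whether the counting used strand is not given in the sources used here, but AC073072.1 itself had 0 counts in every library except 2 in R58Q replicate 3.

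IL6R, the chain that binds IL-6, was higher with both mutants. Its level (ENSG00000160712.13, chromosome 1, 154405193 to 154469450) was 11.8, 8.71 and 10.1 CPM in vector replicates 1 to 3, 22.9, 16.3 and 27.0 CPM in S136X and 29.6, 16.5 and 31.2 CPM in R58Q. No mutant library overlapped the vector libraries, and replicate 2 was the lowest of its group in all 3 groups. Relative to vector, the log2 fold change was 1.11 for S136X (SE 0.188, 95% interval 0.68 to 1.53, adjusted p = 0.00921) and 1.33 for R58Q (SE 0.232, adjusted p = 0.00644). Without vector replicate 2, the S136X call was lost (adjusted p = 0.0536). Between the mutants IL6R was not shown to differ, with a log2 fold change of 0.22 for R58Q against S136X and an interval of -0.39 to 0.82 (adjusted p = 0.864).

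IL6ST, the signal-transducing chain, did not pass the test in any comparison. The gene (ENSG00000134352.20, chromosome 5, 55935095 to 55995022) was at 3.98, 4.19 and 1.56 CPM in vector replicates 1 to 3, 5.43, 2.95 and 1.82 CPM in S136X and 4.82, 3.34 and 2.91 CPM in R58Q. The groups overlapped fully, and replicate 3 was the lowest in each. Its log2 fold change was 0.07 for S136X (95% interval -0.93 to 1.07, adjusted p = 0.939) and 0.18 for R58Q (-0.63 to 1.0, adjusted p = 0.747). With this spread between replicates, the intervals leave room for differences of up to about 2-fold. Of its 31-base words, 5.82% occur in other genes (3.37% in the pseudogene IL6STP1), the highest share of the 10 genes.

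Because IL6R moved and IL6ST did not pass the test, the balance of the receptor chains was read within each library. On levels per length (CPM per kilobase of merged exons), IL6R was 4.29, 2.996 and 9.35 times IL6ST in vector replicates 1 to 3. The ratio was 6.06, 7.97 and 21.3 in S136X and 8.83, 7.13 and 15.5 in R58Q. At each replicate number both mutants had the higher ratio, although the groups overlapped through vector replicate 3. The ratio follows from the IL6R levels already described and was not tested, so that it adds no separate support.

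CNTFR was near zero in vector and rose with both mutants. This gene (ENSG00000122756.15, chromosome 9, 34551432 to 34590140) had 3, 0 and 9 counts in vector, 31, 20 and 27 counts in S136X and 198, 63 and 127 counts in R58Q replicates 1 to 3. The 3 groups did not overlap. With so few counts in vector, the ratio of summed counts after scaling is the plainer measure, 7.25 for S136X against vector (95% counting interval 3.92 to 14.6) and 35.2 for R58Q (19.9 to 68.7). The fitted log2 fold changes were 2.83 (SE 0.643, adjusted p = 0.0273) and 5.10 (SE 0.696, adjusted p = 0.00247). The S136X call was lost without vector replicate 1, vector replicate 2 or S136X replicate 3 (highest adjusted p 0.0801). Vector replicate 3 held 9 of the 12 vector counts, and without it the log2 values were 4.17 and 6.43.

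**Figure D1:**
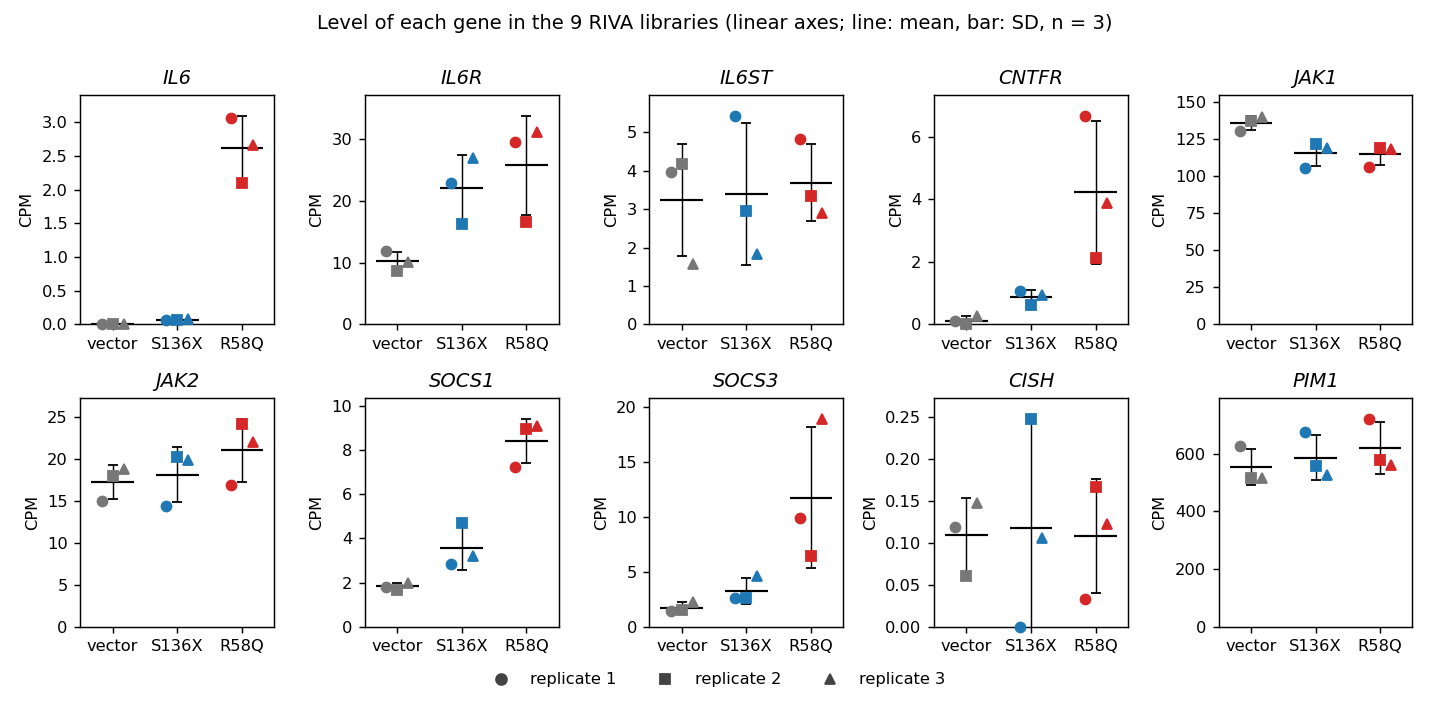
Level in CPM (linear axes starting at 0) of each of the 10 genes in every library, with 3 replicates per group marked by shape, the line at the mean and the bar at 1 SD. IL6 sits at 0 to 0.0702 CPM outside R58Q and at 2.10 to 3.07 CPM within it. SOCS1, SOCS3 and CNTFR separate into 3 steps, and IL6ST, JAK2, CISH and PIM1 overlap between groups.

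Neither of the kinases that carry the signal from gp130 was called. JAK1 (ENSG00000162434.13, chromosome 1, 64833229 to 65067754) was the more abundant of the pair, at 131, 137 and 139.7 CPM in vector, 105.6, 121.7 and 119.3 CPM in S136X and 106.5, 119.3 and 118 CPM in R58Q replicates 1 to 3. All mutant libraries were below all vector libraries, with log2 fold changes of -0.23 for S136X (SE 0.0691, adjusted p = 0.0661) and -0.25 for R58Q (SE 0.0647, adjusted p = 0.0307). Both differences were under 1.5-fold, and the one for S136X also missed the adjusted p threshold, so that JAK1 was not called. JAK2 (ENSG00000096968.14, chromosome 9, 4984390 to 5129948) was at 14.9, 18.0 and 18.8 CPM in vector, 14.4, 20.2 and 19.8 CPM in S136X and 16.8, 24.2 and 22.0 CPM in R58Q. Its groups overlapped, and replicate 1 was the lowest in each. The log2 fold change was 0.07 for S136X (95% interval -0.26 to 0.41, adjusted p = 0.792) and 0.28 for R58Q (-0.05 to 0.62, adjusted p = 0.198).

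SOCS1, an inhibitor that blocks Janus kinases directly, was called higher with both mutants. SOCS1 (ENSG00000185338.6, chromosome 16, 11254408 to 11256204) was at 1.81, 1.68 and 2.00 CPM in vector, 2.84, 4.71 and 3.19 CPM in S136X and 7.25, 8.92 and 9.05 CPM in R58Q replicates 1 to 3. The 3 groups did not overlap. Relative to vector, its log2 fold change was 0.97 for S136X (SE 0.228, adjusted p = 0.0307) and 2.19 for R58Q (SE 0.157, 95% interval 1.84 to 2.55, adjusted p = 1.09e-04). The R58Q call held whichever library was left out. For S136X, 5 of 6 fits with 1 library removed lost the call, all but the one without S136X replicate 1, with adjusted p up to 0.131.

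SOCS3, which binds gp130 and shuts off IL-6 signaling, was called in R58Q. SOCS3 (ENSG00000184557.4, chromosome 17, 78356778 to 78360077) was at 1.42, 1.498 and 2.30 CPM in vector, 2.63, 2.60 and 4.67 CPM in S136X and 9.87, 6.48 and 19.0 CPM in R58Q replicates 1 to 3. The groups did not overlap, and replicate 3 was the highest of its group in all 3. The log2 fold change was 2.76 for R58Q (SE 0.400, adjusted p = 0.00306). For S136X it was 0.92 (SE 0.296, adjusted p = 0.0854), which passed only when the replicate number was fitted as a block (adjusted p = 0.00464), with DESeq2 or without a low-count filter (adjusted p 0.00464 to 0.258 over 14 alternatives).

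CISH, a STAT5-induced member of the same inhibitor family, was barely detected. Its counts (ENSG00000114737.16, chromosome 3, 50606489 to 50611774) were 4, 2 and 5 in vector, 0, 8 and 3 in S136X and 1, 5 and 4 in R58Q replicates 1 to 3. This was too low for the test. The ratio of summed counts to vector was 1.12 for S136X (95% counting interval 0.438 to 2.84) and 0.989 for R58Q (0.376 to 2.56), intervals that leave room for changes of over 2-fold either way. The 4 STAT motif matches printed above were thus in front of a gene with 10 or 11 counts per group.

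PIM1, a survival kinase and STAT target, had the highest level of the 10 genes in every group and was not called. PIM1 (ENSG00000137193.14, chromosome 6, 37170152 to 37175428) was at 627, 517.5 and 517.3 CPM in vector, 675, 556 and 528 CPM in S136X and 722, 577 and 561 CPM in R58Q replicates 1 to 3. In every group replicate 1 was the highest and replicate 3 the lowest, and the groups overlapped. The log2 fold change was 0.08 for S136X (95% interval -0.17 to 0.34, adjusted p = 0.683) and 0.16 for R58Q (-0.11 to 0.43, adjusted p = 0.360), intervals that stay under 1.5-fold.

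Against vector, 3 of the 8 genes tested were called higher in S136X (IL6R, CNTFR and SOCS1) and 0 lower. Genes were called at an adjusted p under 0.05 where the change was also 1.5-fold or more. The background among all 15530 genes tested was 2.05% called higher and 1.82% lower, and the median log2 fold change was 0.50 for the 8 genes and -0.02 for all genes. With the replicate number as a block, SOCS3 joined them (4 called), against 2.90% of all genes higher and 3.63% lower. In R58Q, 5 of 9 tested genes were called higher (IL6, IL6R, CNTFR, SOCS1 and SOCS3) and 0 lower, beside 4.09% of 15435 genes higher and 3.54% lower. The same 5 were called with the block, where the shares over all genes were 4.79% and 5.87%. Their median was 1.33 against -0.03 over all genes, and it was the same with IL6 set at its bound. IL6 in the S136X comparison and CISH in both were removed by the low-count filter. Where IL6 and CNTFR were tested, they passed it through the groups where they were high. Both comparisons share the 3 vector libraries.

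**Figure D2:**
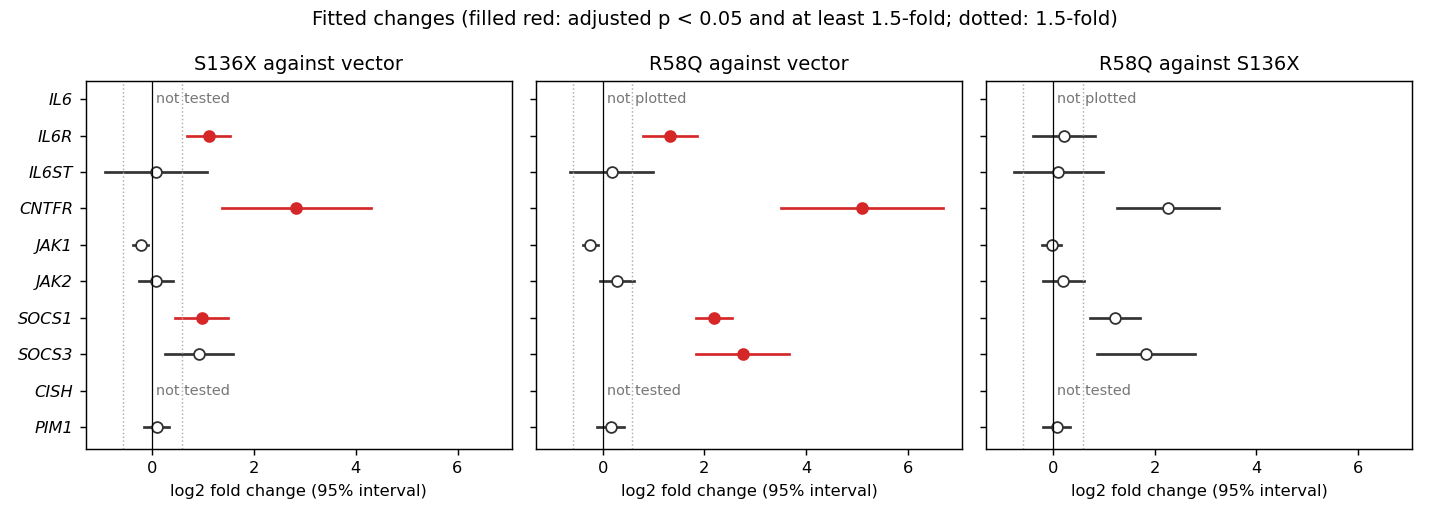
Fitted log2 fold change (x axis) of the genes tested (y axis) with 95% intervals in the 3 comparisons. Filled red points passed an adjusted p under 0.05 and 1.5-fold (dotted lines), and IL6 is not plotted because its fitted value depends on the prior count. IL6R, CNTFR and SOCS1 are filled for S136X, SOCS3 joins them for R58Q, and IL6ST, JAK1, JAK2 and PIM1 are unfilled throughout.

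The mutants were then compared with each other directly. IL6 was the gene called, 1 of 9 tested, beside 0.270% of 15195 genes called higher in R58Q than in S136X and 0.165% lower. With 2 counts in each S136X library, IL6 entered this test only through the R58Q libraries, where it was high. CNTFR, SOCS1 and SOCS3 were higher in each R58Q library than in any S136X library, with log2 fold changes of 2.26 (95% interval 1.26 to 3.26, adjusted p = 0.0886), 1.22 (0.73 to 1.71, adjusted p = 0.0635) and 1.83 (0.87 to 2.79, adjusted p = 0.127). None of these 3 passed the adjusted threshold in this fit. All 3 were called with DESeq2 and without a low-count filter, SOCS1 also with all 9 libraries in one fit, and CNTFR also without R58Q replicate 2. With the replicate number as a block all 3 were called too, at adjusted p = 1.17e-07, 7.09e-07 and 5.37e-09, and 4 genes in all, beside 1.36% of all genes higher and 1.58% lower. Over 14 alternatives each, the highest adjusted p was 0.280, 0.262 and 0.320. Across all 3 groups the same replicate number was the lowest (IL6R, IL6ST, CNTFR, JAK1, JAK2 and PIM1) or the highest (SOCS3 and PIM1). The date applies to these differences as well.

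The order of the 10 genes by level per length shifted between groups. In vector it ran PIM1 (186 CPM per kilobase), JAK1 (21.5), JAK2 (2.79), IL6R (1.58), SOCS1 (1.02), SOCS3 (0.636), IL6ST (0.349), CNTFR (0.0559), CISH (0.0213) and IL6 (0). Neighbors in this order had ranges that did not overlap, apart from CNTFR with CISH, and the places of CISH and IL6 rest on 0 to 5 counts per library. In S136X, IL6R (3.42) stood at the level of JAK2 (2.93) and overlapped it, SOCS1 (1.99) overlapped JAK2 and SOCS3 (1.21), CNTFR (0.415) overlapped IL6ST (0.366), and IL6 (0.0323) overlapped CISH (0.0230). In R58Q, SOCS1 (4.68), SOCS3 (4.31), IL6R (3.99) and JAK2 (3.40) formed a band whose neighbors overlapped. CNTFR (2.00) overlapped JAK2 above it and IL6 (1.26) below it. IL6 was above IL6ST (0.397) in R58Q, with the lowest IL6 library at 1.02 and the highest IL6ST library at 0.519 CPM per kilobase.

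**Figure D3:**
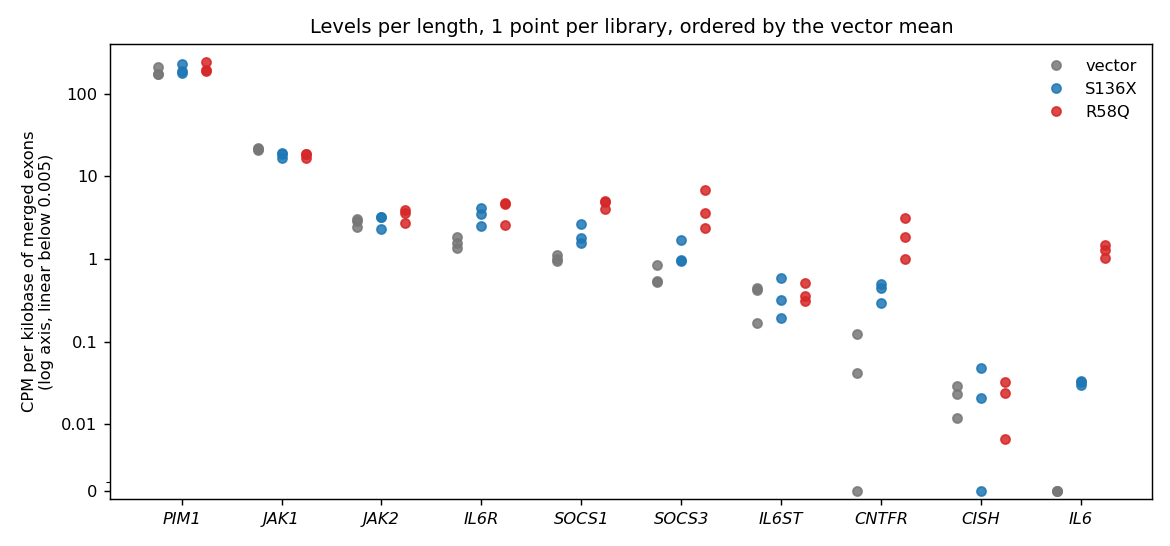
CPM per kilobase of merged exons (log axis, linear near 0) of the 10 genes in each library, 1 point per library, ordered by the vector mean and colored by group. PIM1 and JAK1 keep the first places at 186 and 21.5 in vector, whereas SOCS1, SOCS3 and IL6R come level with JAK2 and IL6 passes IL6ST in R58Q.

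The rest of the pathway was read from a list of 63 genes, of which 49 could be tested for S136X and 50 for R58Q. For S136X 10 were called higher and 0 lower, beside 2.05% and 1.82% of all genes, and the median log2 fold change of the list was 0.10 (all genes -0.02). With the replicate block 11 were called higher, with FOS added (log2 fold change 0.59, adjusted p = 0.0538 without and 0.0201 with the block), beside 2.90% of all genes. Without vector replicate 2 the count for S136X was 5. For R58Q 11 were called higher and 1 lower (BCL3), beside 4.09% and 3.54% of all genes, with a median of 0.14 (all genes -0.03). IL27, 1 of these 11, passed the low-count filter through the R58Q libraries, where it was high, and was removed from the S136X comparison. The genes named here by role come from the 6 called with the largest change in each direction, together with STAT3 and the other Janus kinases.

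Among ligands and soluble partners, the subunits of interleukin-27, which also signals through gp130, were the genes that moved. EBI3, one subunit, had 203, 187 and 169 counts in vector, 1299, 1237 and 1076 in S136X and 2867, 2168 and 3142 in R58Q replicates 1 to 3. Its log2 fold change was 2.85 for S136X (SE 0.110, adjusted p = 5.15e-06) and 3.99 for R58Q (SE 0.139, adjusted p = 1.22e-05). IL27, the other subunit, had 2, 0 and 1 counts in vector, 9, 5 and 5 in S136X and 32, 19 and 25 in R58Q, a ratio of summed counts to vector of 27.6 in R58Q (95% counting interval 9.08 to 137, called at adjusted p = 0.00166). The ratio for S136X, which was not tested, was 7.06 (2.08 to 37.3). Receptor chains of the family other than the 3 described above showed 0 calls among 2 tested (IL11RA and IL27RA), and LIFR and IL31RA had 0 counts in every library.

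Among the STAT factors, STAT5A and STAT3 are described. STAT5A, which acts downstream of many cytokine receptors, had a log2 fold change of 0.91 for S136X (adjusted p = 8.97e-04) and 1.81 for R58Q (SE 0.113, adjusted p = 5.58e-05). STAT3, the main STAT of the IL-6 receptor, was at 62.1 ± 2.38 CPM with vector, 71.6 ± 3.04 with S136X and 87.8 ± 3.94 with R58Q (mean ± SD, n = 3). Its log2 fold change was 0.21 for S136X (adjusted p = 0.0719) and 0.50 for R58Q (adjusted p = 0.00155), under 1.5-fold in both.

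The other Janus kinases were also under 1.5-fold when all libraries of a comparison were used. JAK3 had log2 fold changes of 0.25 (adjusted p = 0.255) and 0.57 (adjusted p = 0.0124) for S136X and R58Q, and TYK2 had 0.46 (adjusted p = 0.0419) and 0.45 (adjusted p = 0.0187). JAK3 became called for R58Q without vector replicate 3 or without R58Q replicate 1. TYK2 became called for S136X without vector replicate 3. Of the inhibitors and phosphatases outside the 10 genes (other SOCS, PIAS and PTPN genes), 0 of 12 tested were called in any of the 3 comparisons. SOCS1 and SOCS3 were thus the called inhibitors among those examined. Among the PIM kinases, PIM2 was called with both mutants, with a log2 fold change of 0.93 for S136X (adjusted p = 0.0155, lost without vector replicate 2) and 0.67 for R58Q (adjusted p = 0.0255, lost without vector replicate 2, vector replicate 3, R58Q replicate 1 or R58Q replicate 3).

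STAT3 response genes were called higher in 6 of 17 tested for each mutant, beside 2.05% of all genes for S136X and 4.09% for R58Q. Without vector replicate 2, IRF1, BATF and JUNB were lost from the 6 for S136X. CEBPD, an acute-phase transcription factor, had 22, 23 and 34 counts in vector, 68, 72 and 61 in S136X and 139, 109 and 164 in R58Q replicates 1 to 3, with log2 fold changes of 1.501 (SE 0.229, adjusted p = 0.00604) and 2.49 (SE 0.230, adjusted p = 3.77e-04). BATF, an AP-1 factor of lymphocytes, had 0.99 for S136X (adjusted p = 0.0118) and 0.95 for R58Q (adjusted p = 0.0119), both lost without vector replicate 2. BCL6, the germinal-center repressor, had 0.97 for S136X (adjusted p = 0.00162) and 0.99 for R58Q (adjusted p = 0.00193). IRF1, an interferon-induced factor, had 2.03 for R58Q (SE 0.156, adjusted p = 1.41e-04) and 0.79 for S136X (adjusted p = 0.0483). The S136X call of IRF1 was lost with limma-voom, with upper-quartile or no scaling factors and in every fit with 1 library removed except the one without S136X replicate 1. BCL3, an atypical NF-kB inhibitor family member, was lower in R58Q with a log2 fold change of -0.61 (SE 0.0981, adjusted p = 0.00482), a call that 3 of 6 fits with 1 library removed did not make (without vector replicate 1, R58Q replicate 2 or R58Q replicate 3).

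Between the mutants, 2 of the 50 list genes tested were called higher in R58Q, EBI3 (log2 fold change 1.13, adjusted p = 0.0138) and STAT5A (0.90, adjusted p = 0.0154). These calls were lost in 3 and 4 of the 6 fits without 1 library, EBI3 without S136X replicate 2, S136X replicate 3 or R58Q replicate 3 and STAT5A without any of the S136X libraries or without R58Q replicate 3. With the replicate block 7 were called (IRF1, CEBPD, IL27 and JUNB among those added).

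**Figure D4:**
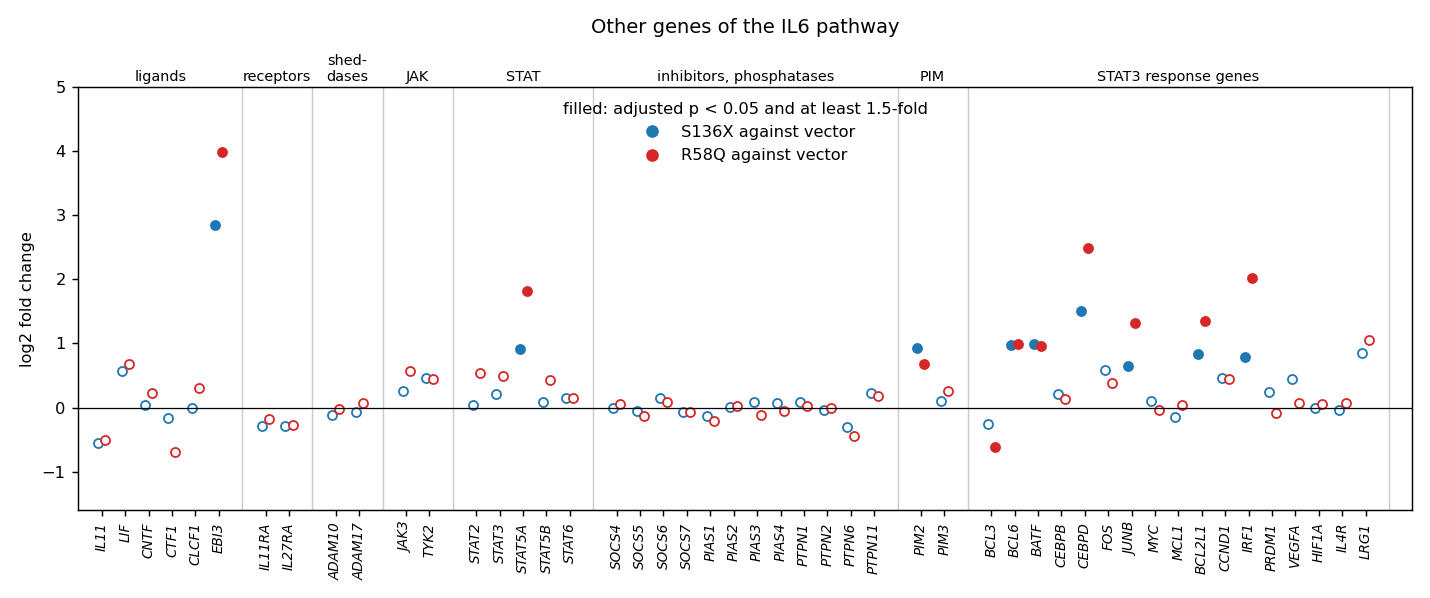
Log2 fold change against vector (y axis) of the other IL-6 pathway genes that were tested and are reported here, grouped by role, with S136X in blue and R58Q in red and filled points for adjusted p under 0.05 and at least 1.5-fold. IL27 is left out because its fitted value rests on 3 vector counts. EBI3 reaches 3.99 and CEBPD 2.49 in R58Q, whereas all inhibitors and phosphatases are unfilled.

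Genes whose pattern was most like those of IL6, IL6R and SOCS1 were ranked by Pearson correlation of log2 CPM over the 9 libraries, among 15860 genes. For IL6 these were HAPLN3 (r = 0.998), CFAP46 (0.990), RAP2A (0.989), RNF145 (0.986) and GPR132 (0.983). For IL6R they were CHPF2 (0.989), RPS6KC1 (0.978), PLOD3 (0.977), ELMO1 (0.976) and TASOR2 (0.975). For SOCS1 they were DUSP2 (0.992), JUNB (0.988), TMEM87A (0.987), LACTB (0.984) and AZIN1 (0.982). The 9 points share 3 groups, 2 dates and the replicate numbers, so that these values describe the ranking and carry no test.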

How the data were processed

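The authors deposited, for RNA-seq of 9 libraries, read counts per gene and beside them normalized counts, which were not used. Per the labels, total RNA entered an mRNA library kit and fastq files of separate runs were combined, and the submitters' processing notes list cutadapt, STAR, Picard and hg38. The counting program, its strand setting and the test behind the study's gene lists are not given in the sources used here. Of the 60656 gene identifiers, 96.34% are in GENCODE release 29 and 99.9% of those overlap in position. The table held 0 rows without a gene and 0 numeric columns without a sample.

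Each comparison was fitted with edgeR 4.0.16 in R 4.3.3 (filterByExpr with minimum count 10 and minimum total 15, TMM, quasi-likelihood F test, Benjamini-Hochberg adjustment over all genes tested) on the 6 libraries of its groups. CPM used TMM factors over 9 libraries, with no prior count except 2 for the ranking of similar genes. Standard errors and 95% intervals are on the log2 scale. Intervals of count ratios are exact binomial and, like the floor of 3 counts, cover counting error only. The fits were also run on simulated counts with planted changes as a check of the code, and no result here rests on that check. The chi-square of replicate pairs, divided by its degrees of freedom, was 7.91 to 25.6, well above sampling noise, and each library was kept as 1 sample. The study calls the replicates biologic, but the labels name no separate cultures, and p-values measure the spread between these libraries.

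Replicate numbers were checked as pairs by correlating deviations from the group means. All 9 same-number correlations were above 0.1 (0.143 to 0.626, median 0.425, against a median of -0.251 for different numbers), and the blocked fit is reported beside the calls it altered. Alternatives were DESeq2 1.42.0, limma-voom (limma 3.58.1), upper-quartile or no factors, other filters, thresholds and samples. The 10 genes, the lists and the naming rule (all 10, the 6 list genes with the largest change per comparison and direction, STAT3, JAK3, TYK2 and BCL10, and the 5 genes most correlated with IL6, IL6R and SOCS1) were chosen with earlier results of these data known. A gene that this rule selects is not reported here.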

Additional observations from a re-analysis of the deposited data

Results flagged for a closer look

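IL6 differed between the mutants under the same contrast. Its counts were 91, 63 and 87 with R58Q against 2 in every S136X library, a ratio of summed counts of 39.2 (95% counting interval 17.7 to 108), and the direct test of R58Q against S136X gave an adjusted p of 0.00162 (edgeR's quasi-likelihood test), higher in 3 of 3 R58Q libraries. Over 13 alternatives the adjusted p ran from 5.22e-12 to 0.0278. IL6 passed the low-count filter only through the R58Q libraries, and a filter of at least 10 counts in every library removed it. All R58Q columns carry the later date, so that mutant and date cannot be told apart.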

How the results depend on the processing

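Over 26 fitted changes of the 10 genes and 359 alternatives, 324 kept direction and side of the threshold, 9 kept direction but missed it, 14 newly passed it and 12 turned sign. Scaling never moved the median of all genes by over 0.1 on the log2 scale. The turned values were all of genes not called and all came from leaving out 1 library, for IL6ST (S136X -0.43 to 0.38, turned at -0.43 and -0.25; R58Q -0.15 to 0.41, turned at -0.15 and -0.044; between mutants -0.18 to 0.61, turned at -0.18 and -0.12), PIM1 (S136X -0.031 to 0.19, between mutants -0.047 to 0.18), JAK2 (S136X -0.0092 to 0.21) and JAK1 (between mutants -0.080 to 0.036, turned at 0.010, 0.021 and 0.036).

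Among the 10 genes, the S136X count of 3 ran from 0 (without vector replicate 2) to 3 with 1 library left out, with 1 remaining without vector replicate 1 or S136X replicate 3, and was 1 at an adjusted p under 0.01. The R58Q count of 5 was 5 whichever library was left out and 3 with at least 10 counts required in every library, which removes IL6 and CNTFR by construction. The same filter gave 0 between the mutants, where the count of 1 became 4 with DESeq2, 4 without a filter, 2 with all 9 libraries in one fit, 4 with the replicate block, and 1 to 2 with 1 library left out (2 without R58Q replicate 2). In the pathway list, the S136X count of 10 was 5 to 10 with 1 library left out (5 without vector replicate 2), 5 at an adjusted p under 0.01 and 3 at 2-fold. Its count of 2 between mutants was 5 with DESeq2, 6 without a filter, 5 with all libraries in one fit, 7 with the block, 0 at an adjusted p under 0.01, 1 at 2-fold and 0 to 2 with 1 library left out. It was 0 without S136X replicate 2, S136X replicate 3 or R58Q replicate 3, and 1 without S136X replicate 1. Other than for that filter, the cause was not tested. Over all genes, the calls for S136X were 601 (934 without a filter, 1014 with the block, 279 without vector replicate 2, 349 without S136X replicate 3), those for R58Q 1178 (719 without vector replicate 2, 778 without R58Q replicate 3) and those between mutants 66 (146 with DESeq2, 165 without a filter, 114 with all libraries in one fit, 446 with the block, 5 to 63 with 1 library left out). DESeq2 gave no adjusted p for CNTFR in S136X or for IL27 in R58Q against vector. The block changed no other call among the 10 genes than those given.

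At these depths 3 counts correspond to 0.0883 to 0.105 CPM, so that IL6 in vector and S136X and CISH in every group lie near the limit of detection. With 3 libraries a group and R58Q on its own date, a difference that misses the threshold is not shown to be absent.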

Other observations

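Further genes of the pathway list fell outside the naming rule and were chosen after their values were seen. BCL2L1, which encodes the anti-apoptotic protein BCL-XL, was called with both mutants, with log2 fold changes of 0.83 for S136X (SE 0.0657, adjusted p = 2.78e-04) and 1.35 for R58Q (SE 0.0760, adjusted p = 4.56e-05, edgeR's quasi-likelihood test). JUNB, an AP-1 subunit, had 0.65 for S136X (adjusted p = 0.0116, lost without vector replicate 2 or S136X replicate 2) and 1.33 for R58Q (adjusted p = 1.65e-04). OSM, another gp130 ligand, had 1, 4 and 3 counts in vector, 3, 7 and 3 in S136X and 16, 5 and 7 in R58Q replicates 1 to 3, and the gene of its receptor chain OSMR had at most 1 count in any library.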
